A study of Mus musculus with 8 samples.

Results

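The mitotic genes described here are 43 genes that carry a cell through division: mitotic cyclins and kinases, the spindle checkpoint, the centromere and kinetochore, spindle motors, the cytokinesis machinery and condensin. They were chosen by name, as the rows of the deposited count table that bear their symbols, out of 41730 rows. Of the 43, 42 passed the filter on low counts, and Kif11 did not. RNA-seq was done on spheroids of 4T1, a mouse mammary carcinoma line, grown as hanging drops in DMEM with 10% FBS. All cells had received a lentivirus. One group expressed a scrambled short hairpin RNA (shCtrl, 4 libraries) and the other a hairpin against Tlr7 (shTlr7, 4 libraries), a receptor in endosomes that senses single-stranded RNA. Which promoter drives the hairpins, and whether a group is 1 clone, the labels used here do not give. Nor do they tell whether libraries of one group are separate cultures, and the p-values therefore cover a spread between libraries that may be technical.

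At entry into mitosis, Cdk1 bound to B-type cyclins phosphorylates its targets, condensin compacts the chromosomes and kinesins build a bipolar spindle. Kinetochores assembled on centromeres attach to microtubules, and the spindle checkpoint holds back the anaphase-promoting complex until every chromosome is attached. The central spindle then directs an actin ring that splits the cell, and most of these transcripts are made in G2 and M phase, so that in tumour cells they are widely read as a measure of how many cells divide.

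Many genes of this kind share promoter elements. The cell cycle genes homology region (CHR), usually spelled TTTGAA or TTCGAA, is known to be bound by complexes that hold the MuvB core, and CCAAT boxes upstream by the factor NF-Y. RefSeq promoters of GRCm38.p6 (250 bases before to 50 bases after the annotated start site) were matched for 35 of the 43 genes. Ccna2, Cdc25c, Aurkb, Incenp, Tpx2, Kif20a, Smc4 and Foxm1 were not matched. The window of Kif2c (chr4:117178723-117179022, - strand) lies inside the gene, which reaches to 117182624, and its TTTGAA at position -103 is counted below. Bases after the start site were found in annotated sense transcripts for 33 of the 35 genes. The 3 genes with the lowest p among those lower in shTlr7 (Bub1b, Racgap1 and Ccnb2) and the gene with the largest rise (Ccnf, added after its values were seen) are shown 5′ to 3′ on the strand of the gene. Matches on either strand to both CHR spellings and to CCAAT are in capitals.
Bub1b, chr2:118597961-118598260, + strand: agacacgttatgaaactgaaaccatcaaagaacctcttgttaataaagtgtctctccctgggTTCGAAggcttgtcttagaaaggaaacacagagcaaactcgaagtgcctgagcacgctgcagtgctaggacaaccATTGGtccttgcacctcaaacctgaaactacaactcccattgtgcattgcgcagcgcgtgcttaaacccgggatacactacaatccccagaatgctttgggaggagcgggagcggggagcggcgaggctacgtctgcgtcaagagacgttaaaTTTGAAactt
Racgap1, chr15:99651607-99651906, - strand: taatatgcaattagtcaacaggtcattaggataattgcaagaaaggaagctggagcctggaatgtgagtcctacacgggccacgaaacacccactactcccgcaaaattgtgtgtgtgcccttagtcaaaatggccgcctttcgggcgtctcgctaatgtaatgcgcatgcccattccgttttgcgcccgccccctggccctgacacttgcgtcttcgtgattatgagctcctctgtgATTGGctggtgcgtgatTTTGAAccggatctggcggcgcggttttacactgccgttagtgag
Ccnb2, chr9:70421505-70421804, - strand: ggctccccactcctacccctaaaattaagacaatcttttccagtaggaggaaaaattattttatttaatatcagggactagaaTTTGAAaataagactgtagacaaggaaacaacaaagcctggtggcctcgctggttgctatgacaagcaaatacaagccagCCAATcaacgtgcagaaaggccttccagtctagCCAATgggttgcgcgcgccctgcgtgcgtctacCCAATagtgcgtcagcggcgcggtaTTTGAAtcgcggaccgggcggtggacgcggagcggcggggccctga
Ccnf, chr17:24251360-24251659, - strand: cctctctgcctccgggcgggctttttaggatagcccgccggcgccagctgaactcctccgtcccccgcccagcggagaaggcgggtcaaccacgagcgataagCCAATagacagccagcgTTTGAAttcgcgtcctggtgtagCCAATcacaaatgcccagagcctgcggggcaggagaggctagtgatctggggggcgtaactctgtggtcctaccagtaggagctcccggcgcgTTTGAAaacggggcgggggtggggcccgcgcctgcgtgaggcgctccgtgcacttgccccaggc
In these promoters the TTTGAA match nearest to the start site began at position 41 in Bub1b, 6 in Racgap1, 5 in Ccnb2 and -14 in Ccnf, counting the start site as 1.

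TTTGAA or TTCGAA was found in 28 of the 35 promoters (80.0%), against 19.4% of all 27025 genes in the promoter table. TTCGAA is its own reverse complement; matches to the CHR spellings cannot share bases with each other but can share 1 with CCAAT. The CCAAT letters were present in 28 of the 35 (80.0%), against 37.9% of all genes. Within 50 bases of the start site, 25 of the 35 (71.4%) held TTTGAA or TTCGAA, against 5.29% of all genes and 28.9% of 135 promoters of other mitotic genes. Grouped by the test of shTlr7 against shCtrl, TTTGAA or TTCGAA was found in 12 of 15 promoters of genes called lower, 13 of 17 of genes not called and both of genes called higher (the remaining promoter is that of Kif11). Within 50 bases of the start site, it was found in 12 of 15, 11 of 17 and 1 of 2, in the same order. A match describes these letters and shows neither binding nor a cause.

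**Figure D1:**
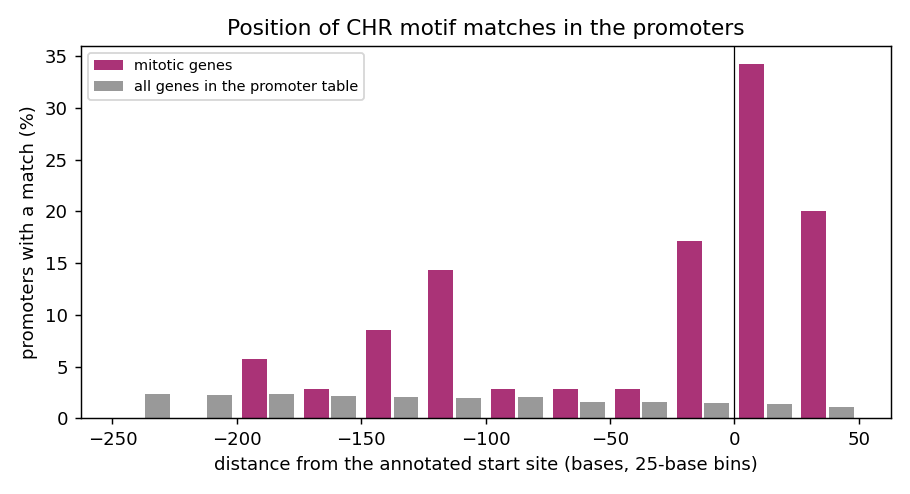
Share of promoters (y axis, percent) with a CHR motif match that begins in each 25-base bin of distance from the annotated start site (x axis, bases), for 35 mitotic genes and for all 27025 genes in the promoter table. The 25 bases from the start site onwards hold a match in 34.3% of the mitotic genes and in 1.37% of all genes.

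The libraries held 18111623 to 93787535 counts, deepest in shTlr7 replicate 2. Tlr7 itself was near absent in every library, with counts of 2, 3, 2 and 2 for shCtrl and 0, 4, 3 and 0 for shTlr7 (replicates in order), so the knockdown cannot be read from this gene (log2 fold change -1.02 ± 0.79 (SE) without the filter, edgeR adjusted p = 0.339). Of 6 mammary epithelial markers, 5 passed the filter, with means of 705 CPM (counts scaled to the library total and the TMM factor) for Epcam and 1412 CPM for Krt18 in shCtrl, while Krt5 had 0 counts in all 8 libraries. All 5 were called by edgeR, with log2 fold changes (shTlr7 minus shCtrl) of -3.50 for the basal keratin Krt14 (adjusted p = 1.91e-07; 36.2 to 3.26 CPM), -0.47 for Krt18 (5.62e-06), -0.37 for Krt8 (6.06e-05), 0.15 for Epcam (0.0297) and 0.20 for Cdh1 (0.000714), and the part of these changes in the results on mitotic genes was not tested. Of 4 fibroblast markers 2 passed, Pdgfra at 42.3 CPM in shCtrl and 43.6 CPM in shTlr7 and Col1a1 at 2.22 and 1.64 CPM, and neither was called. No marker of leukocytes (5 genes) or endothelium (3 genes) passed. Kif11, which encodes the motor that pushes spindle poles apart, had 2 counts over all 8 libraries, and Nek2, a centrosome kinase, 192. Each has a further row for a copy in the count table, which holds 0 counts, and of 1729 genes with a row of their own and such a copy 1331 had under 10 counts in that row, so neither value can be read as expression. Nek2 passed the filter all the same and stays among the 42 genes counted below, as not called.

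Levels of the mitotic genes changed little, and most of the changes were falls. Of 42 genes, 21 were called, 19 (45.2%) lower in shTlr7 and 2 (4.76%) higher, by edgeR's quasi-likelihood test with Benjamini-Hochberg adjusted p under 0.05. Over all 13393 genes tested 56.1% were called, 26.8% lower and 29.3% higher. The median log2 fold change (shTlr7 minus shCtrl) was -0.08, against 0.011 over all genes. The sizes were modest, with a median absolute log2 fold change of 0.12 against 0.23 over all genes, and 27.1% of all genes changed by more than the largest change among the mitotic genes, 0.43. In bulk RNA, fewer dividing cells and less RNA per dividing cell cannot be told apart.

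The number of mitotic genes called lower depended on how libraries were scaled. Their median lay below that of all genes with either scaling. TMM factors were 0.960 to 0.969 in shCtrl and 1.03 to 1.05 in shTlr7, and without them, by library size alone, the median over all genes went from 0.011 to 0.115. With that scaling 7 mitotic genes (16.7%) were lower and 11 (26.2%) higher, against 18.6% and 41.2% over all genes. The median of the mitotic genes was 0.02. As a share of all counts, which is itself a scaling by library total, the 42 genes made up 1.02% ± 0.045 (SD, n = 4) in shCtrl and 1.03% ± 0.036 in shTlr7, so no lower share was measured. With all 8 libraries and under each of 17 alternatives, library-size scaling included, 7 genes were called lower and 2 higher. The lower ones were Bub1b, Racgap1, Ccnb2, Tpx2, Anln, Kif23 and Ube2c, and the higher ones Ccnf and Mki67. A further 7 (Ccnb1, Cenpf, Nuf2, Ect2, Smc2, Smc4 and Foxm1) were called lower in all but library-size scaling. The alternatives reuse the same 8 libraries. The share of all genes called under each of them was not computed, so these counts have no background. In CPM with TMM factors, 11 genes (26.2%) were lower and 2 (4.76%) higher without any overlap of the groups (23.8% and 26.0% of all genes on those sides). By library size alone, 3 were lower without overlap (Bub1b, Racgap1 and Anln) and 6 higher. The shares over all genes were not computed for this scaling, so neither count can be read as a result about the mitotic genes. The groups of Ccnb2, Ube2c, Tpx2, Kif23 and the other lower genes that were apart with TMM then overlapped.

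**Figure D2:**
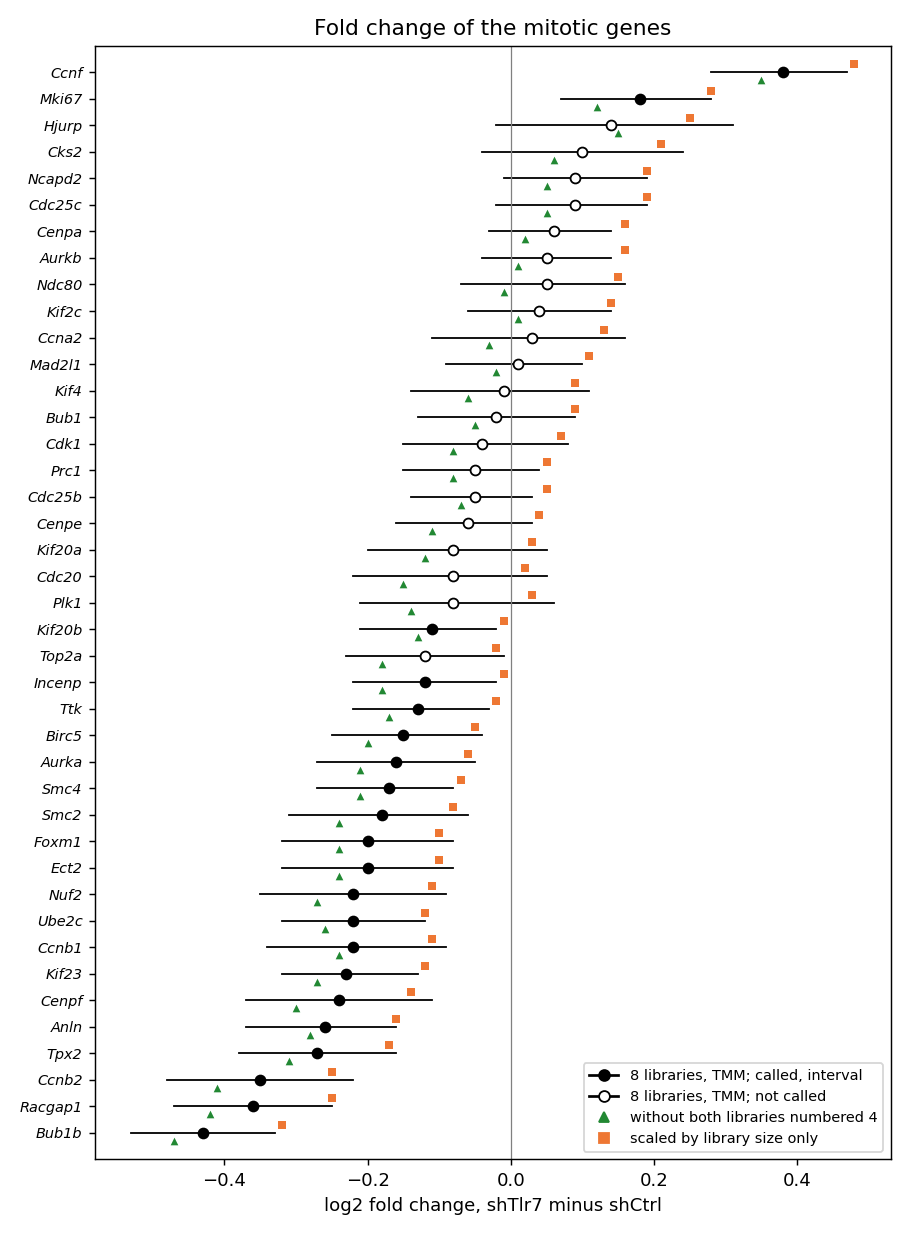
Log2 fold change (x axis, shTlr7 minus shCtrl) of 41 mitotic genes (y axis; Nek2 left out for its low counts), with circles for the fit on 8 libraries (filled where called, lines for 95% intervals), triangles for the fit without the libraries numbered 4 and squares for scaling by library size alone. Bub1b, Racgap1 and Ccnb2 lie lowest and Ccnf highest under each of the 3 settings.

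The cyclins and the regulators of Cdk1 went different ways. Ccnf encodes cyclin F, an F-box protein that marks substrates for degradation and activates no kinase. Ccnf (chromosome 17, 24223230 to 24251409, GRCm38.p6) stood at 89.8, 93.3, 94.6 and 87.1 CPM in shCtrl replicates 1 to 4 and at 112, 122, 122 and 118 CPM in shTlr7 replicates 1 to 4. All 4 shTlr7 libraries lay above all 4 shCtrl libraries, a rise of 30.1% (log2 fold change 0.38 ± 0.04 (SE), edgeR adjusted p = 8.36e-06). Ccnb2, a B-type cyclin (chromosome 9, 70407689 to 70421554), had 248, 247, 245 and 206 CPM in shCtrl and 175, 190.4, 195 and 181 CPM in shTlr7, in the same order of replicates. The groups were apart, and the level fell by 21.6% (-0.35 ± 0.06, edgeR adjusted p = 0.000211).

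Ccnb1, the other B-type cyclin measured, was also called lower. Its CPM were 112, 120.1, 117 and 101 in shCtrl and 94.2, 101, 102 and 90.3 in shTlr7, so that shCtrl replicate 4 fell among the shTlr7 libraries (-0.22 ± 0.06, edgeR adjusted p = 0.00579). With scaling by library size it was not called (-0.11, edgeR adjusted p = 0.0960). Cdk1, the kinase both cyclins activate, had 259, 275, 267 and 236 CPM in shCtrl and 233, 263, 262 and 251 CPM in shTlr7, with overlapping groups. Its log2 fold change of -0.04 had a 95% interval from -0.15 to 0.08 (edgeR adjusted p = 0.558). Ccna2, the A-type cyclin of S and G2 phase, overlapped as well, at 297, 330.4, 310.5 and 262 CPM and 289, 319, 316 and 298 CPM (0.03, interval -0.11 to 0.16), and 12.5% of its exon bases also lie in exons of Exosc9 on the other strand. Exosc9 had a mean of 1180 counts per library, where Ccna2 had 5393 to 30954. The phosphatases Cdc25b and Cdc25c, which activate Cdk1, and its small partner Cks2 had log2 fold changes of -0.05, 0.09 and 0.10, and none of the 3 was called in the fit on 8 libraries. Cdc25c and Cks2 were called higher with scaling by library size.

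Ratios of 2 genes inside a library do not depend on scaling. The count ratio of Ccnb2 to Ccna2 was 0.837, 0.748, 0.789 and 0.789 in shCtrl replicates 1 to 4 and 0.607, 0.596, 0.616 and 0.607 in shTlr7 replicates 1 to 4. That is 0.791 ± 0.0361 against 0.607 ± 0.00821 (mean ± SD, n = 4), with no overlap. Ccnf to Bub1b, the pair furthest apart, went from 0.413 ± 0.0175 to 0.722 ± 0.0120. These pairs were chosen after their values were seen and carry no test.

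**Figure D3:**
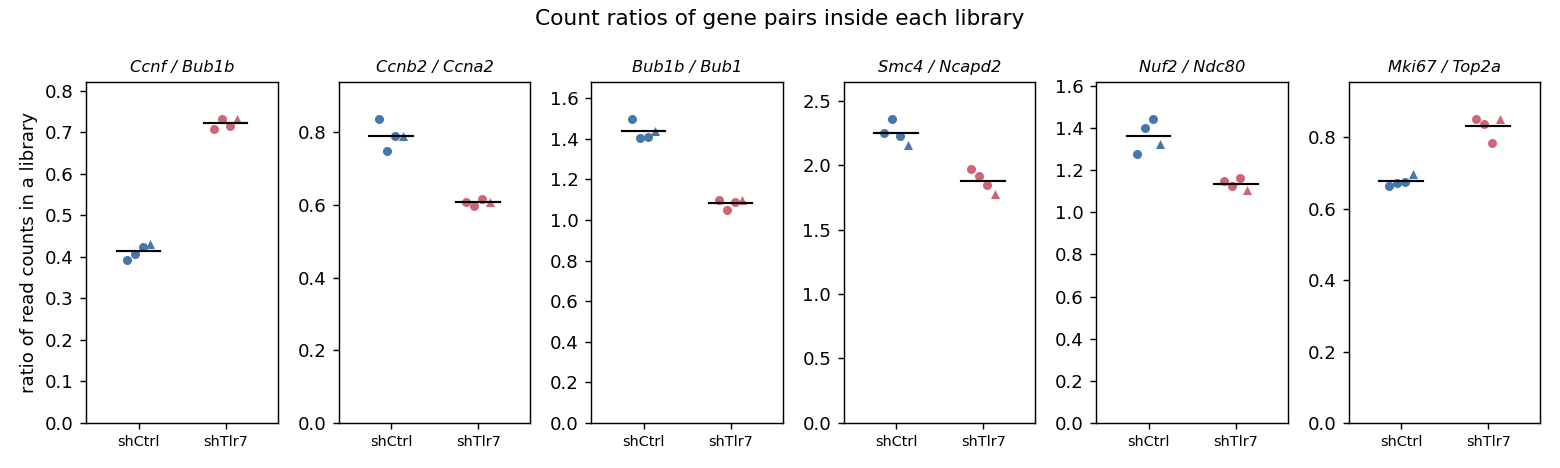
Ratio of read counts of 2 genes inside each library (y axis) for 6 pairs of mitotic genes, with 1 point per library (triangles for the libraries numbered 4) and a line at the mean of each group. In each of the 6 pairs the 4 shCtrl and 4 shTlr7 libraries do not overlap; the pairs were chosen after their values were seen.

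Of the 3 genes grouped here as mitotic kinases (Aurka, Plk1 and Nek2), 1 was called (56.1% of all genes were called), and Nek2 cannot be read. The kinases Cdk1 and Aurkb, neither of them called, are counted in other role groups. Aurka, which matures centrosomes, had 133, 126, 131 and 118 CPM in shCtrl and 103, 116, 119 and 116 CPM in shTlr7, where the highest shTlr7 library passed the lowest shCtrl library (-0.16 ± 0.05, edgeR adjusted p = 0.0197). The call was lost without shCtrl replicate 1 (edgeR adjusted p = 0.0613), without shCtrl replicate 3 (0.0540), without shTlr7 replicate 1 (0.0621), with scaling by library size (0.386) and with thinning to the smallest total (0.119). Plk1, which acts at centrosomes, kinetochores and the midbody, had 172, 166, 167 and 143 CPM and 141, 154, 165 and 154 CPM. Its groups overlapped, and at -0.08 (interval -0.21 to 0.06, edgeR adjusted p = 0.31) it was not called. Without the libraries numbered 4 it was called, at -0.14 (edgeR adjusted p = 0.0148).

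In the spindle checkpoint, Bub1b had the largest fall among all 42 genes. Bub1b encodes BubR1, a part of the complex that inhibits Cdc20 (chromosome 2, 118598202 to 118641592, 23 merged exons). Its CPM were 229, 229.7, 224 and 202 in shCtrl replicates 1 to 4 and 158, 167, 170.4 and 162 in shTlr7 replicates 1 to 4. The lowest shCtrl library stood well above the highest shTlr7 library, and the level fell by 25.6% (-0.43 ± 0.05, edgeR adjusted p = 5.02e-06). The related kinase Bub1 was not called, at -0.02 (interval -0.13 to 0.09), and the count ratio of Bub1b to Bub1 went from 1.44 ± 0.0431 to 1.08 ± 0.0237. Mad2l1, which also inhibits Cdc20, had 114, 117, 113 and 106 CPM and 108, 114, 119 and 111 CPM, and its log2 fold change of 0.01 changed sign in several alternatives and was called higher with scaling by library size (0.11, edgeR adjusted p = 0.0468). Ttk, the kinase that starts checkpoint signalling, was called lower at -0.13 (edgeR adjusted p = 0.0248) and was called in 12 of 17 alternatives. It was not called without shCtrl replicate 1 (0.0555), shCtrl replicate 2 (0.0793) or shTlr7 replicate 1 (0.0656), and with scaling by library size it stood at -0.02 (edgeR adjusted p = 0.677).

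Downstream of the checkpoint, the ubiquitin-conjugating enzyme Ube2c, which starts chains for the anaphase-promoting complex, had 208, 207, 207 and 189 CPM in shCtrl and 163, 174, 184 and 174 CPM in shTlr7. The groups were apart, and the level fell by 14.4% (-0.22 ± 0.05, edgeR adjusted p = 0.00107). Of its exon bases, 22.8% also lie in exons of Tnnc2 on the other strand, which had a mean of 25.1 counts per library. Cdc20, the activator of that complex, had 170.2, 167, 162 and 142 CPM and 136, 154, 160.1 and 156 CPM with overlap (-0.08, edgeR adjusted p = 0.277), and was called lower without the libraries numbered 4 (-0.15, edgeR adjusted p = 0.00884).

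At the centromere and outer kinetochore, 2 of 6 genes were called, both lower (33.3%, against 26.8% called lower over all genes). Cenpf, a large protein of the outer kinetochore, had 316, 358, 332 and 336 CPM in shCtrl and 262, 287, 271 and 316 CPM in shTlr7, where shTlr7 replicate 4 lay at the level of the lowest shCtrl library (-0.24 ± 0.06, edgeR adjusted p = 0.00329). Nuf2 had 104, 120.1, 114 and 99.4 CPM and 87.2, 95.0, 99.1 and 95.6 CPM (-0.22 ± 0.06, edgeR adjusted p = 0.00763), with groups that did not overlap by a narrow margin. Nuf2 forms a dimer with Ndc80 that holds microtubules. Ndc80 itself had 81.7, 85.9, 78.9 and 75.2 CPM and 75.9, 84.6, 85.3 and 86.4 CPM and was not called (0.05, interval -0.07 to 0.16), though it was called higher with scaling by library size (0.15, edgeR adjusted p = 0.0277). The count ratio of Nuf2 to Ndc80 went from 1.36 ± 0.0747 to 1.14 ± 0.0253.

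The kinetochore motor Cenpe had 245, 268, 261 and 237 CPM in shCtrl and 236, 245, 238 and 250.1 CPM in shTlr7, with overlap (-0.06, edgeR adjusted p = 0.252), and was called lower without the libraries numbered 4 (-0.11, edgeR adjusted p = 0.0164). Cenpa, the histone variant that marks centromeres, had a log2 fold change of 0.06 and was called higher only with scaling by library size (0.16, edgeR adjusted p = 0.00331). Hjurp, its chaperone, had 481, 495, 506 and 591 CPM in shCtrl and 521, 587, 539 and 639 CPM in shTlr7, and was highest in the library numbered 4 of each group. It was not called on 8 libraries (0.14 ± 0.08, edgeR adjusted p = 0.131) and was called higher in several alternatives, among them without the libraries numbered 4 (0.15, edgeR adjusted p = 0.00411) and with scaling by library size (0.25, 0.0205).

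The chromosomal passenger complex corrects faulty attachments. Its scaffold Incenp had 263, 262, 269 and 249 CPM in shCtrl and 225, 231, 249.8 and 255 CPM in shTlr7 (-0.12 ± 0.05, edgeR adjusted p = 0.0483), with overlap. The subunit Birc5, known as survivin, had 194, 217, 209 and 189 CPM and 173, 186, 185 and 186 CPM (-0.15 ± 0.05, edgeR adjusted p = 0.0185), where the groups were just apart. Both calls were lost when some single libraries were left out, for Birc5 shCtrl replicate 2 (0.0643), shCtrl replicate 3 (0.0548) or shTlr7 replicate 1 (0.0612), and for Incenp any of 5 libraries (edgeR adjusted p from 0.0844 to 0.146). Birc5 was called in 13 and Incenp in 9 of 17 alternatives. Neither passed with scaling by library size (0.436 and 0.830). The kinase of the complex, Aurkb, had a log2 fold change of 0.05 (interval -0.04 to 0.14) and was not called on 8 libraries. With scaling by library size Aurkb was called higher, at 0.16 (edgeR adjusted p = 0.00643).

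Among spindle motors and microtubule factors, Tpx2 fell. Tpx2 activates Aurora A on the spindle and nucleates microtubules (chromosome 2, 152847964 to 152895321). It had 274, 294, 276 and 245 CPM in shCtrl and 218, 232, 235 and 217 CPM in shTlr7. The groups were apart, and the level fell by 17.1% (-0.27 ± 0.05, edgeR adjusted p = 0.00073). The microtubule depolymerase Kif2c had 113, 115, 109.6 and 107 CPM and 106, 116, 120.3 and 116 CPM with overlap (0.04, interval -0.06 to 0.14), and was called higher with scaling by library size (0.14, edgeR adjusted p = 0.0144). The chromosome-bound motor Kif4 had a log2 fold change of -0.01.

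In the central spindle and cytokinesis group, all 7 genes had a log2 fold change below 0 and 5 of 7 were called lower (26.8% over all genes). With scaling by library size Kif20a (0.03) and Prc1 (0.05) lay above 0, and 3 of 7 were called lower (18.6% over all genes). Racgap1, a subunit of centralspindlin (chromosome 15, 99620496 to 99651656), had 253, 259.9, 257 and 227 CPM in shCtrl replicates 1 to 4 and 182, 194, 203 and 199 CPM in shTlr7 replicates 1 to 4. With the groups apart, the level fell by 22.0% (-0.36 ± 0.05, edgeR adjusted p = 4.07e-05). Kif23, the motor subunit of centralspindlin, fell by 14.6% (-0.23 ± 0.04, edgeR adjusted p = 0.000589), also without overlap. The ratio of Racgap1 to Kif23 counts went from 0.975 ± 0.0157 to 0.890 ± 0.0196.

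Anln, the scaffold that ties actin, myosin and septins at the cleavage furrow (chromosome 9, 22331214 to 22389211), had 847, 904, 859 and 789 CPM in shCtrl and 709, 721, 728 and 673 CPM in shTlr7. It fell by 16.7% with groups apart (-0.26 ± 0.05, edgeR adjusted p = 0.000329). Ect2, the exchange factor that activates RhoA at the furrow, was called lower at -0.20 (edgeR adjusted p = 0.0067), and the motor Kif20b at -0.11 (edgeR adjusted p = 0.0422, called in 9 of 17 alternatives). The Kif20b call was lost without any of 5 single libraries (edgeR adjusted p from 0.0679 to 0.114) and with scaling by library size (-0.01, 0.882). Kif20a, a motor of the midzone, had 73.0, 81.7, 77.7 and 66.5 CPM and 70.0, 71.6, 73.3 and 68.9 CPM with overlap (-0.08, edgeR adjusted p = 0.287). It was called lower without the libraries numbered 4 (-0.12, edgeR adjusted p = 0.0276), and 29.3% of its exon bases also lie in exons of Cdc23 on the other strand. Cdc23 had a mean of 2370 counts per library, where Kif20a had 1307 to 6942. The microtubule bundler Prc1 had a log2 fold change of -0.05 (interval -0.15 to 0.04).

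**Figure D4:**
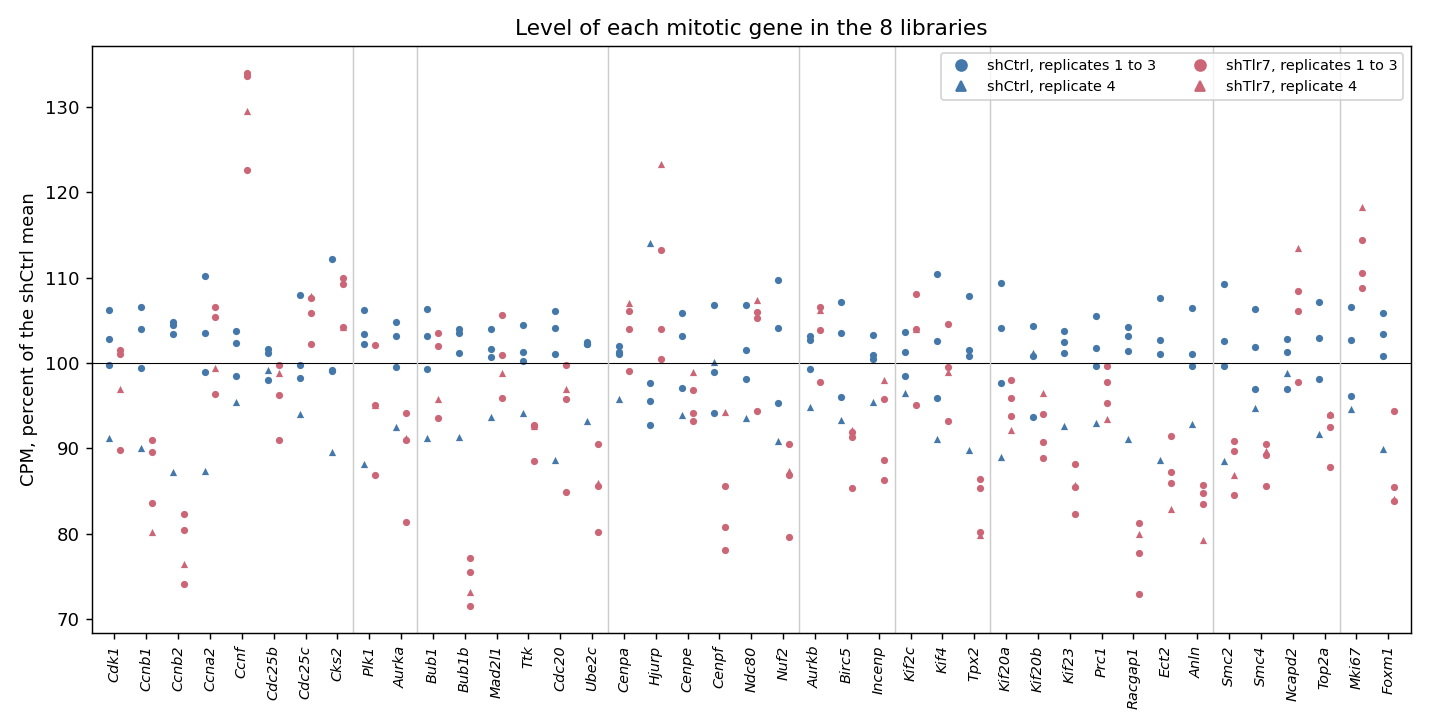
CPM of 41 mitotic genes (x axis, in the order of their roles, with grey lines between role groups; Nek2 left out for its low counts) in each library, as a percent of the gene's shCtrl mean (y axis, which does not start at 0). Points stand for single libraries, circles for replicates 1 to 3 and triangles for replicate 4, and shCtrl replicate 4 lies low among the shCtrl libraries (39 of the 42 genes below the group mean).

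Of the condensin subunits, the core ATPases Smc4 and Smc2 were called lower with TMM scaling and no regulatory subunit was. Smc4 had 472, 518, 496 and 461 CPM in shCtrl and 417, 441, 434 and 436 CPM in shTlr7, without overlap (-0.17 ± 0.04, edgeR adjusted p = 0.00431). Its partner Smc2 had 206, 225, 212 and 183 CPM and 174, 185, 188 and 179 CPM, where shCtrl replicate 4 reached into the shTlr7 range (-0.18 ± 0.06, edgeR adjusted p = 0.0127). Neither call held with scaling by library size (0.182 and 0.217). Ncapd2, a regulatory subunit of condensin I, was not called (0.09, interval -0.01 to 0.19) but was called higher with scaling by library size (0.19, edgeR adjusted p = 0.00322) and without shTlr7 replicate 1 (0.13, 0.0219). The count ratio of Smc4 to Ncapd2 went from 2.25 ± 0.0853 to 1.88 ± 0.0838. Of the other regulatory subunits, Ncapd3 (0.19, edgeR adjusted p = 0.00233), Ncapg (0.17, 0.0106) and Ncapg2 (0.13, 0.0231) were called higher, whereas Ncaph (0.02) and Ncaph2 (0.10) were not called. These 5 were singled out after their values were seen.

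Top2a, the topoisomerase that untangles sister chromatids, had 1349, 1473, 1415 and 1261 CPM in shCtrl and 1208, 1271, 1290.2 and 1292 CPM in shTlr7. With overlap and an edgeR adjusted p of 0.0571 (-0.12 ± 0.05) it missed the threshold, and it passed without the libraries numbered 4 (-0.18, edgeR adjusted p = 0.000482) and with DESeq2 (-0.13, DESeq2 adjusted p = 0.0314). Mki67 encodes Ki-67, the coat of mitotic chromosomes used to count cycling cells (chromosome 7, 135689784 to 135716450). It went the other way, at 894, 992, 956 and 881 CPM in shCtrl and 1029, 1065, 1012 and 1101 CPM in shTlr7. The 4 shTlr7 libraries lay above the 4 shCtrl libraries by 13.0% (0.18 ± 0.05, edgeR adjusted p = 0.00632), and the count ratio of Mki67 to Top2a rose from 0.678 ± 0.0151 to 0.832 ± 0.0321. Foxm1, a transcription factor of G2 and M genes, had 261, 267, 274 and 232 CPM and 221, 217, 244 and 217 CPM with overlap (-0.20 ± 0.06, edgeR adjusted p = 0.00691). With scaling by library size Foxm1 was not called (-0.10, edgeR adjusted p = 0.130).

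Per kilobase of merged exons (GENCODE M21), levels in shCtrl were highest for Ccnb2 at 155 and Top2a at 153 CPM per kb, followed by Anln at 93.8, Smc4 at 93.4 and Mki67 at 92.5. The lowest after Nek2 were Cdc25c at 10.6 and Ccnf at 11.7. Merged exons join those of all annotated transcripts of a gene (1.53 kb for Ccnb2, 7.80 kb for Ccnf). They can be longer than the RNA present, and the order of genes depends on them. In shTlr7 the order at the top changed, with Top2a at 140 and Ccnb2 at 121 CPM per kb.

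The mitotic genes also differed between libraries of one group. In shCtrl replicate 4, 39 of 42 genes lay below their group mean, with a median deviation of -0.108 in log2 CPM. In shTlr7 replicate 1 this held for 40 of 42, with a median of -0.073, while the medians of the other 6 libraries lay between 0.006 and 0.063. Over all genes the median deviations lay between -0.002 and 0.003, and over 151 other mitotic genes they were -0.071 in shCtrl replicate 4 and -0.032 in shTlr7 replicate 1. Without shCtrl replicate 4, 23 genes were called lower and 3 higher (28.0% and 29.3% over all genes). Without shTlr7 replicate 1, 14 were lower and 3 higher (24.9% and 27.0% over all genes). Without both libraries numbered 4, 24 were lower and 3 higher (30.0% and 31.3% over all genes), with a median of -0.14. The 19 genes called lower on 8 libraries were among the 24, and Plk1, Cdc20, Cenpe, Kif20a and Top2a were added, while Hjurp was the third higher gene.

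**Figure D5:**
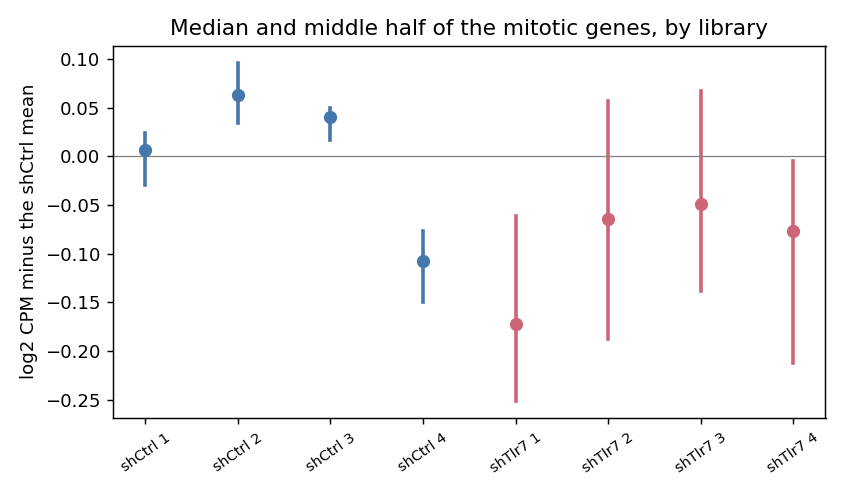
Median (points) and interquartile range (lines) of the 42 mitotic genes in each library, as log2 CPM minus the gene's shCtrl mean (y axis). The median of shCtrl replicate 4 (-0.108) lies below those of shTlr7 replicates 2, 3 and 4 (-0.064, -0.049 and -0.077), and shTlr7 replicate 1 is lowest at -0.172.

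Around these genes, a wider list of 159 other mitotic genes had 151 tested members, of which 89 (58.9%) were called, near the 56.1% over all genes. Of the 151, 57 (37.7%) were lower and 32 (21.2%) higher, against 26.8% and 29.3% over all genes, with a median log2 fold change of -0.05. With scaling by library size 30 (19.9%) were lower and 54 (35.8%) higher, against 18.6% and 41.2% over all genes, and the median was 0.06. Spindle motors and microtubule factors held 18 lower and 3 higher of 35, and other mitotic kinases 4 lower and 0 higher of 7, whereas passenger and condensin genes held 4 higher and 0 lower of 7. Anaphase-promoting complex genes were even, with 5 lower and 5 higher of 17. The remaining lists had 4 lower and 4 higher of 9 (Cdk1 regulators), 6 and 3 of 15 (cohesin and separase), 5 and 6 of 18 (kinetochore and checkpoint), 4 and 2 of 17 (inner centromere), 8 and 3 of 16 (cytokinesis) and 3 and 2 of 10 (MuvB and DREAM regulators). Scaling by library size turned the balance to more higher than lower calls for cytokinesis (4 lower, 6 higher), cohesin and separase (3 and 7), the inner centromere (1 and 3), MuvB and DREAM regulators (1 and 5) and the anaphase-promoting complex (2 and 6), and left the spindle motors near even (9 and 8), a scaling under which 41.2% of all genes were called higher and 18.6% lower.

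The called genes of this list with the lowest p included changes larger than those of the 42 genes. Tacc3, which stabilises kinetochore fibres, had 258, 259, 261 and 247 CPM in shCtrl and 140.2, 152, 153 and 163 CPM in shTlr7, and fell by 40.7% with groups far apart (-0.75 ± 0.05, edgeR adjusted p = 1.96e-08). The spindle protein Ckap2l fell from 319.7 ± 14.8 to 223 ± 11.1 CPM (mean ± SD, n = 4), Wee1, the kinase that holds Cdk1 inactive, from 111 ± 1.94 to 81.9 ± 2.32 CPM, and Arpp19, an inhibitor of the phosphatase that opposes Cdk1, from 139 ± 4.61 to 104 ± 3.38 CPM. On the higher side, Spc25, a subunit of the complex that also holds Ndc80 and Nuf2, had 40.9, 43.3, 40.4 and 36.5 CPM and 60.0, 64.5, 64.4 and 60.3 CPM (0.63 ± 0.06, edgeR adjusted p = 7.24e-07). Ska1, which couples that complex to microtubules, rose by 0.48 (edgeR adjusted p = 1.44e-05), gamma-tubulin Tubg1 by 0.57 (1.07e-05) and the dynein regulator Ndel1 by 0.42 (2.19e-05). These 8 changes kept their direction and passed the threshold with scaling by library size and without the libraries numbered 4.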

How the data were processed

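The authors deposited 1 table of read counts per gene (whole numbers, 8 libraries, no normalization). STAR 2.7.5, DESeq2 1.32.0 and GRCm38 are named, with no role, per the submitters' processing notes. How reads were counted (program, annotation, strand) was not given in the sources used here, and overlapping genes cannot be told apart. TruSeq libraries were made from total RNA, per the labels' protocols.

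Counts were filtered with filterByExpr (13393 genes), scaled by TMM and tested with edgeR 4.0.16 in R 4.3.3 (robust quasi-likelihood, group as the only term, adjusted p under 0.05). Standard errors are the log2 fold change over the square root of F. CPM were computed here from the deposited counts. The biological coefficient of variation was 6.76%, and 4.23% without both libraries numbered 4. No pair of libraries of a group agreed within sampling noise (chi-square per degree of freedom 2.14 to 20.2). The test was checked on simulated data in which few genes changed. In the data here 56.1% of genes were called, so that check does not cover the choice of scaling. Coordinates are RefSeq GRCm38.p6, and exon lengths and overlaps GENCODE M21.

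The mitotic genes and the other lists were chosen with earlier results of these data known. Genes named with every library's value were Cdk1, Ccnb1, Plk1, Aurka, Mki67 and Foxm1, per role group the 2 with the lowest p and the largest absolute fold change, and those whose call or direction changed without the libraries numbered 4. Of the wider list, the 4 called genes with the lowest p in each direction were named. Alternatives were RLE and library-size scaling, DESeq2 1.42.0, limma-voom (limma 3.58.1), no filter, 1 CPM in 4 libraries, the replicate block, leaving out each library or both numbered 4, and thinning to the smallest total.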

Additional observations from a re-analysis of the deposited data

Results flagged for a closer look

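In 5 of the 56 groups screened (28 named mitotic genes in each condition), 1 library stood far from the other 3 by Dixon's gap test, which flags about 1 group in 20 by chance. Ccnb2 was at 206 CPM in shCtrl replicate 4, against 245 to 248 CPM in the other shCtrl libraries, and Ube2c at 189 CPM in the same library, against 207 to 208 CPM. In shTlr7 replicate 1, Ndc80 was at 75.9 CPM against 84.6 to 86.4 CPM, and Birc5 at 173 CPM against 185 to 186 CPM. Foxm1 was at 244 CPM in shTlr7 replicate 3, against 217 to 221 CPM in the other shTlr7 libraries. The libraries shCtrl replicate 4 and shTlr7 replicate 1 are those in which most mitotic genes lay below their group mean.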

How the results depend on the processing

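The balance of calls depended on the scaling. With library size alone, 11 mitotic genes were called higher and 7 lower, and their median log2 fold change was 0.025 in place of -0.079. The median over all genes was 0.115 in place of 0.011. All other settings kept both counts within 1.5 times of 2 higher and 19 lower. The median moved between -0.138 and -0.059 over the fits that left out 1 library, against a spread of 0.066 (SD) between libraries, and called genes ranged from 14 to 23 lower and 2 to 3 higher. Over all genes these fits gave 3476 to 4019 higher and 3220 to 3843 lower.

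Genes near 0 changed sign without being called: with library size alone Cdk1 (0.07), Plk1 (0.03), Cdc20 (0.02), Cenpe (0.04) and Kif20a (0.03). Ccna2 stood at -0.04 without shCtrl replicate 4 and -0.03 without both libraries numbered 4, where Ndc80 stood at -0.01. Mad2l1 stood at -0.01 with RLE scaling, DESeq2 and limma-voom, at 0 (just below it) with 1 CPM in 4 libraries, at -0.03 without shCtrl replicate 4 and at -0.02 without shTlr7 replicate 3, without both libraries numbered 4 and with thinning. With the replicate block Hjurp (0.14) and Top2a (-0.12) were also called, 20 mitotic genes were lower and 3 higher, and over all genes 4005 lower and 4334 higher. Deviations of same-numbered libraries from their group means correlated at -0.01, 0.11, 0.12 and 0.38 across genes for replicates 1 to 4, and not every library correlated best with its own number, so the numbers were not taken to pair the libraries. The libraries numbered 4 did share a deviation. Each correlated at -0.31 to -0.09 with the other libraries of the opposite group, and the cause was not tested. Nek2 and Kif11 had too few counts to read.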
